A study of Mus musculus with 36 samples.

Results

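Gata4, Gata6, Sox7, Sox17, Foxa2 and Hnf4a are transcription factors of the endoderm, and their expression was followed through 9 days of differentiation of female Xmas mouse embryonic stem cells (mESCs). All 6 were chosen by symbol as core factors of the endoderm programme, all 6 had a row in the expression table, and the table holds 25965 genes. Together they collected 406 reads in 36 libraries. Of the 216 values they make over these libraries, 148 had no read and 30 lay above a floor of 3 reads. Sox7 was above this floor early, on days 1 to 3, and Foxa2 late, on days 7 and 8. Gata4 passed it in 6 scattered libraries and Hnf4a in 0. Gata6 passed it in 3 libraries of days 7 and 8, and Sox17 in 5 of days 0, 7 and 8, all of the line X14.

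Xmas mESCs are of the C57/Bl6 strain and carry GFP on one X chromosome and mCherry on the other, each driven by the endogenous Hprt promoter. Cells grown in 2i with LIF were weaned into medium with serum and no LIF, and bulk RNA was taken each day from day 0 to day 8. The 4 libraries of each day come from 2 lines, X14 and X18, each with a library labelled double and one labelled single. Replicate 1 is X14 double, replicate 2 X14 single, replicate 3 X18 double and replicate 4 X18 single on every day, and the meaning of double and single is not given in the sources used here. Libraries can be contrasted by day, line and label. The same 4 cultures were named on every day, and nothing in the labels says whether a day's dishes were differentiated separately, so the p-values measure only the spread between these libraries. A change in bulk RNA does not tell a change in the number of expressing cells from a change in RNA per cell.

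Libraries held 612740 to 2445826 reads in genes (median 1297944.5), and the floor of 3 reads corresponds to 1.04 to 3.90 reads per 1000000 reads of the library (RPM). These limits cover counting error only. The X-linked output of each library, taken as the median log2 value of 569 X-linked genes relative to day 0 minus the same over 14042 autosomal genes, was compared within the 18 pairs of the same day and line. In 17 pairs the double library exceeded the single one, in X14 by 0.57 against -0.58 on day 1 and 0.15 against -0.35 on day 8. What the labels stand for was not tested. In the remaining pair, X14 on day 0, the value was -0.78 for the library labelled double and 0.51 for its single partner. Results against day 0 are therefore also given without both X14 libraries of that day.

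As background, Gata6 and Gata4 are zinc finger factors that install the primitive endoderm of the blastocyst, the extraembryonic layer that later forms the yolk sac. Sox17 and Sox7 are closely related SOX factors that act beside them, Sox17 also in definitive endoderm and both in blood vessels. Foxa2 is a forkhead pioneer factor of the anterior primitive streak, definitive endoderm, node and floor plate. Hnf4a is a nuclear receptor of the visceral endoderm and liver that drives genes for secreted serum proteins.

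In mm10, Gata4 lies on the minus strand at chr14:63198922-63271692 and Sox7 on the plus strand of the same chromosome at chr14:63943674-63950732, 672 kb apart. Sox17 is at chr1:4490928-4496413 on the minus strand. Foxa2 at chr2:148042877-148046969 (minus strand) and Hnf4a at chr2:163506808-163572910 (plus strand) share chromosome 2. Hnf4a overlaps 0610008F07Rik on the other strand, and since it is not given whether counting used the strand, its few reads could belong to either gene.

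The promoters of the member that rose late and of the member that never passed the floor are shown as examples of the regulatory sequence at these genes. RefSeq windows on GRCm38.p6 were at hand for these 2 of the 6 genes, and the window next to the deposited start of each is printed on the strand of the gene. Searched on both strands were the GATA motif AGATAA, the forkhead motif TGTTTAC and the SOX motif ACAAAG, with matches in capitals. Foxa2 spans chr2:148046970-148047219 and Hnf4a chr2:163506607-163506828.
Foxa2: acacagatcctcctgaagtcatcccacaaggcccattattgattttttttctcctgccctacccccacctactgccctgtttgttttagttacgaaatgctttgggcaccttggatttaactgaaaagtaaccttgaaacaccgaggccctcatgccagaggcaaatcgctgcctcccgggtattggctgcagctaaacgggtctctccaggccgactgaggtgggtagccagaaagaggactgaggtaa
Hnf4a: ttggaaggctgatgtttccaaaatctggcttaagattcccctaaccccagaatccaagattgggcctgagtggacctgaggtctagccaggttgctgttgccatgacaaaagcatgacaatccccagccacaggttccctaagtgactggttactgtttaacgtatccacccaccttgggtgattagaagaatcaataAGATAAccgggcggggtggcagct
The Hnf4a window held 1 GATA match, whose first base lies 3 bases before the deposited start of the gene, and the last 21 bases of this window are inside the deposited gene. RefSeq starts the gene further downstream, 52 bases after the first base of the match. The Foxa2 window held none of the 3 motifs. Of 32851 promoter windows cut to 250 bases, 9.99% held the GATA motif, 3.17% the forkhead motif and 16.5% the SOX motif. A match of this kind describes letters and is not a binding site.

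**Figure D1:**
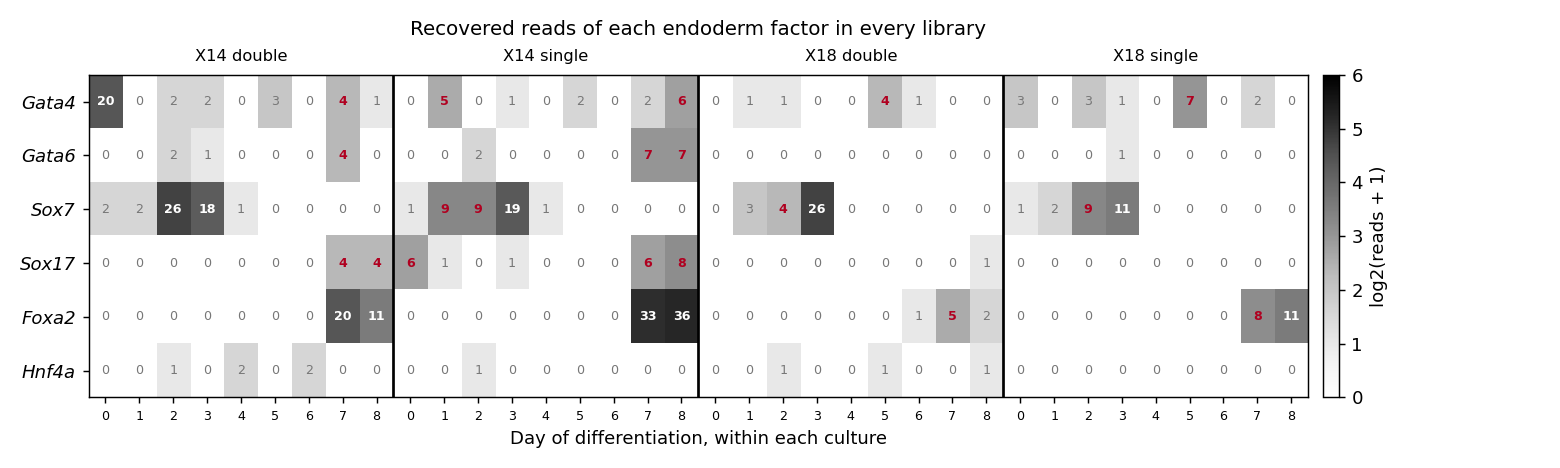
Number of recovered reads of each factor (rows) in each of the 36 libraries (columns, ordered by culture and then by day 0 to 8). Shading gives log2(reads + 1), and counts above the floor of 3 reads are printed bold in red or white. Sox7 fills days 2 and 3 in all 4 cultures and Foxa2 days 7 and 8, while the largest count in the grid is 36 reads.

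Sox7 was read in its highest amounts on days 2 and 3. On day 0 its level was 0.925, 0.463, 0 and 0.854 RPM in replicates 1 to 4. It reached 9.79, 7, 3.83 and 8.95 RPM on day 2 and 12, 8.96, 15 and 5.37 RPM on day 3. Every library of days 2 and 3 was above its floor and above every library of day 0. The mean went from 0.561 ± 0.425 RPM (SD, n = 4) on day 0 to 7.39 ± 2.65 on day 2, and day 3 had 10.3 ± 4.12. Against day 0, day 2 differed by 3.19 in log2 (SE 0.45, limma adjusted p = 4.57e-05) and day 3 by 3.66 (SE 0.45, adjusted p = 5.83e-07). Without both X14 libraries of day 0 these were 2.97 and 3.44, with adjusted p of 0.000206 and 2.8e-05. All 12 libraries with at least 1 RPM of Sox7 were of days 1 to 3. Only these took the gene past the filter for testing, so its p-values are descriptions. From pooled reads, 74 on day 3 and 4 on day 0, the ratio was 16.1 with an exact 95% interval of 6.05 to 60.8 that covers counting error only.

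On day 1 the level of Sox7 was 1.41, 4.71, 2.99 and 2.16 RPM, all above day 0, but only X14 single passed the floor. The difference of day 1 from day 0 was 1.75 on the log2 scale and did not pass (adjusted p = 0.259), nor did the steps from day 1 to day 2 (1.44, adjusted p = 0.359) or from day 2 to day 3 (0.47, adjusted p = 0.998). Without replicate 1, Sox7 was called on day 1 as well.

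Sox7 then fell within a day. Day 4 had 0.672, 0.647, 0 and 0 RPM, which is 2 reads against 74 on day 3, a log2 fold change of -4.06 (SE 0.45, adjusted p = 1.09e-07). The pooled ratio of day 3 to day 4 was 32.9 (95% interval 8.8 to 277). From day 5 to day 8 there was no read in any of 16 libraries, which allows a level of up to 0.126 RPM over these libraries together. Line and label hardly separated Sox7 on days 2 and 3, with means of 9.44 RPM in X14 and 8.28 in X18 and of 10.2 in double and 7.57 in single libraries, and overlapping ranges. This difference was not tested.

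Sox17, the close relative of Sox7, had no read on day 2 and 1 read on day 3. Its late course is given with Gata6 below, since both were found in the same libraries. Over all 36 libraries the genes most like Sox7, limited to those averaging 10 RPM or more, were Vim (r = 0.80), Socs3 (r = 0.79) and Cops7a (r = 0.79). Vim encodes the intermediate filament vimentin and Socs3 a feedback inhibitor of LIF signalling. Vim stood at 140 ± 52.8 RPM on day 0, at 322 ± 38 on day 3 and at 42 ± 18 on day 6 (SD, n = 4), and Socs3 stood at 54.5 ± 31.7, 175 ± 30.3 and 16.7 ± 2.29 RPM on these days. These correlations are descriptions across libraries that share cultures and days. With 0 reads of Sox7 on days 5 to 8, no likeness within those days could be taken.

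**Figure D2:**
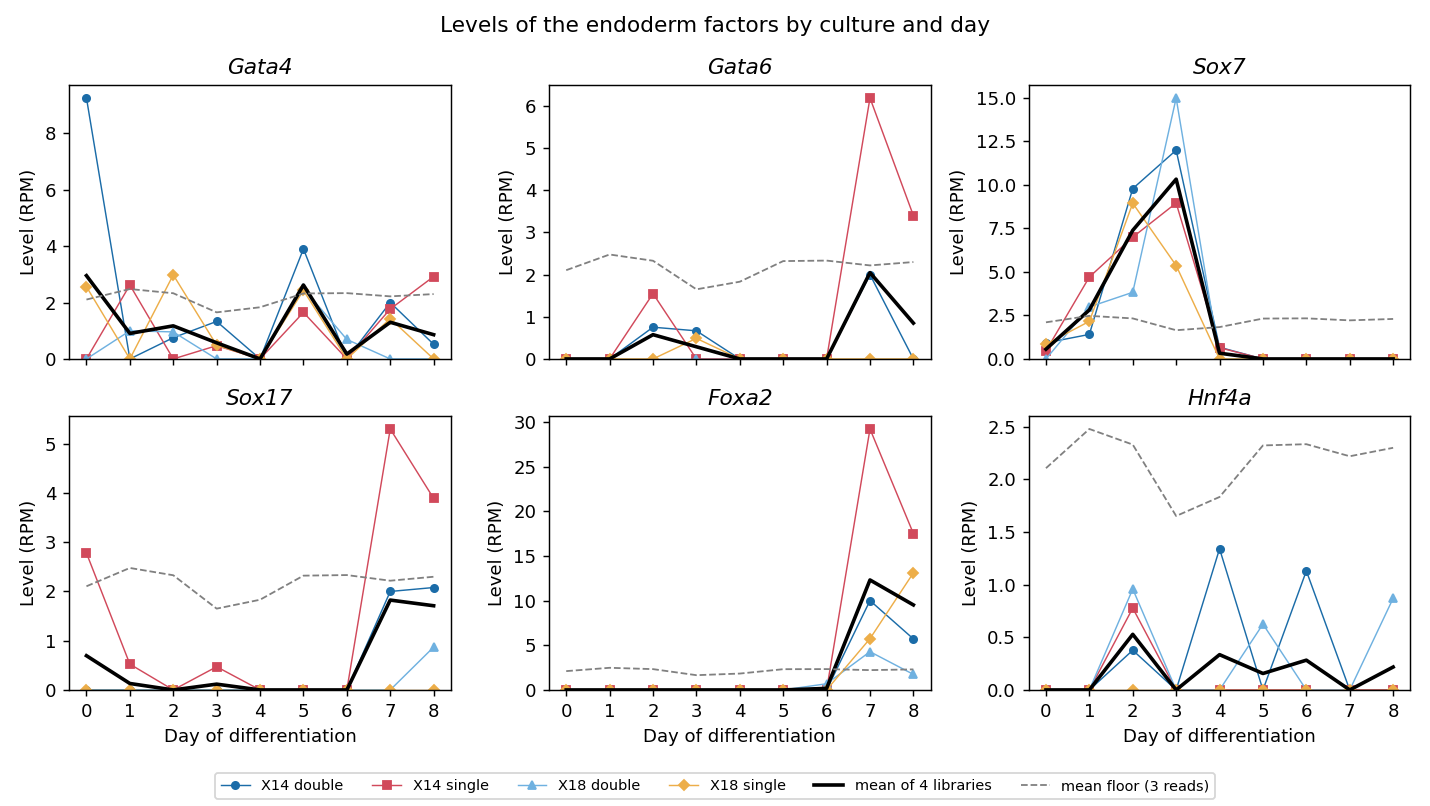
Level in RPM (linear axes, own scale per panel) of each factor on days 0 to 8. Coloured lines and markers are the 4 cultures, the black line their mean and the dashed grey line the mean floor of 3 reads per library of that day. Mean Sox7 peaks at 10.3 RPM on day 3 and mean Foxa2 at 12.3 RPM on day 7, whereas Hnf4a stays under the floor on every day.

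Foxa2 was read almost wholly on days 7 and 8. It had no read in the 24 libraries of days 0 to 5, which allows up to 0.0786 RPM over them, and 1 read on day 6, in X18 double. On day 7 it had 20, 33, 5 and 8 reads, or 10, 29.2, 4.28 and 5.74 RPM, above the floor in all 4 libraries. On day 8 the levels were 5.71, 17.5, 1.74 and 13.1 RPM, and X18 double, with 2 reads, was under the floor. Since no library of days 0 to 5 had a read, each of the 8 late libraries lay above all of them. The means were 12.3 ± 11.5 RPM on day 7 and 9.51 ± 7.10 on day 8 (SD, n = 4), so the spread between cultures was nearly as large as the mean. Measured against the floor of day 0, the mean of Foxa2 was at least 5.84-fold higher on day 7 and at least 4.52-fold higher on day 8. These bounds rest partly on X14 single, without which they were 2.85-fold on day 7 and 2.92-fold on day 8, and without X18 double the day 8 bound was 6.80-fold.

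The fitted log2 difference of Foxa2 from day 0, which depends on the value written for libraries without reads and is no bound, was 3.96 (SE 0.56, limma adjusted p = 8.12e-07) on day 7 and 3.54 (SE 0.56, adjusted p = 4.55e-06) on day 8. Without both X14 libraries of day 0 the adjusted p was 0.000122 and 0.000531. The step from day 6 to day 7 also passed (limma adjusted p = 0.000292). Its pooled ratio was 65.4, with a 95% interval of 11.3 to 2621 that is wide because day 6 had 1 read. All 8 libraries with at least 1 RPM of Foxa2 were of days 7 and 8. Only these took the gene past the filter for testing, so its p-values are descriptions and no independent support. Days 7 and 8 did not differ beyond their spread (-0.41 on the log2 scale, SE 0.56, adjusted p = 0.949).

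A pair of streak genes was read before Foxa2. T, the mesoderm and streak factor brachyury, had 2 reads on day 5. Its mean was 22.6 ± 16.2 RPM on day 6, 53.4 ± 57.7 a day later and 75.5 ± 75.1 at the end. Eomes, a T-box factor needed for definitive endoderm, was read from day 0 on, at 3.73 ± 2.6 RPM that day and 9.35 ± 7.59 on day 4. All 4 libraries were above the floor on days 2 and 3. From day 5 to day 8 its means were 4.91 ± 2.76, 48.1 ± 10.9, 18.4 ± 17.8 and 13.8 ± 15.6 RPM (SD, n = 4). On day 6 both were above the floor in all 4 libraries, while Foxa2 had its single read. Over the 36 libraries the genes most like Foxa2 were Tmprss2 (r = 0.88), a serine protease gene, T (r = 0.84) and Plac1 (r = 0.79), a trophoblast gene. The mean of Tmprss2 was 3.92 ± 2.53, 40.5 ± 12.3 and 73.1 ± 5.77 RPM on days 6, 7 and 8, so that it was higher on day 8 than on day 7, where the mean of Foxa2 was lower. Plac1 had another order between cultures than Foxa2. On day 8 it had 405, 91.3, 274 and 41.6 RPM in replicates 1 to 4. It was thus higher in the double library of each line, whereas Foxa2 was higher in the single library.

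The 4 cultures differed in how much Foxa2 they made, in the same order as T and Eomes. On days 7 and 8 together the mean level of Foxa2 was 7.85 RPM in X14 double, 23.3 in X14 single, 3.01 in X18 double and 9.41 in X18 single. For T the same means were 40.1, 160, 13.4 and 44.2 RPM, and for Eomes 9.32, 40.3, 3.02 and 11.7 RPM. X14 single was the highest culture for Foxa2, T, Eomes, Cer1, Lhx1, Mixl1 and Gsc on both days, and for Gata6 and Sox17 too. These streak genes were picked after their values were seen. Of the 11 tested genes of the anterior and definitive endoderm list, Eomes, Cer1, Lhx1, Mixl1 and Gsc are the 5 with X14 single highest on both days. On day 8 Otx2 had 74.9 RPM in X18 single and 61.7 in X14 single, and Lefty1, a Nodal antagonist, 86.8 and 56.8 RPM. Cer1 encodes a secreted Nodal and Bmp antagonist, and Lhx1, Mixl1 and Gsc encode homeodomain factors of the streak and its anterior derivatives. Nanog and Pou5f1, factors of pluripotency, were instead highest in X18 single on both days.

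After day means were subtracted, the genes most like Foxa2 over the 16 libraries of days 5 to 8 were T (r = 0.91), Eomes (r = 0.87) and Rrm2 (r = 0.86), a subunit of ribonucleotide reductase. For Sox17 they were T (r = 0.85), Fancc and Prkrir, and for Gata6 Lefty2 (r = 0.87), T (r = 0.87) and Imp4. These values come from 4 cultures sampled on 4 days and, for Gata6 and Sox17, from 18 and 23 reads, so a single culture carries much of each. Gata6 and Sox17 had no read on days 5 and 6, and Foxa2 had none on day 5 and 1 on day 6. A library without a read enters at 0.9 read, so its value follows the depth of the library. The part of depth in these correlations was not tested.

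**Figure D3:**
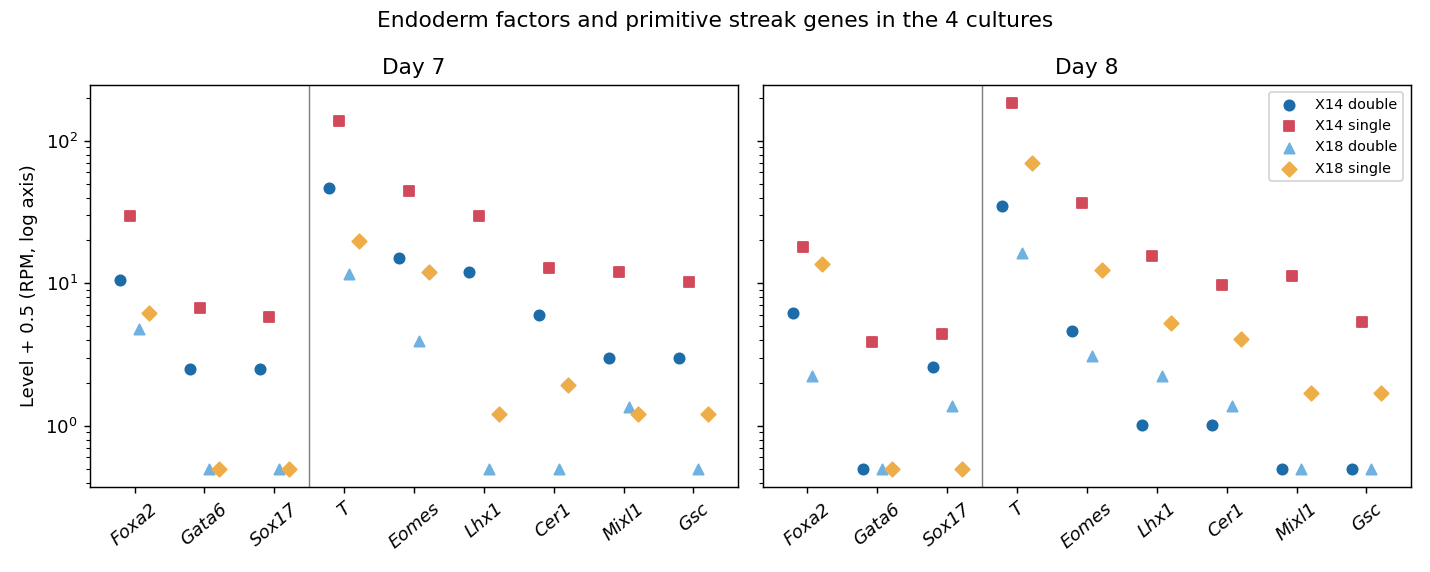
Level plus 0.5 RPM, on a log axis, of 3 endoderm factors (left of the grey line) and 6 streak genes (right) in the 4 cultures on day 7 and day 8. Each marker is 1 library. The streak genes were picked after their values were seen, and other genes of their list, such as Otx2, had another order. The X14 single library is the highest for the 9 genes plotted on both days, at 29.2 RPM for Foxa2 and 137 RPM for T on day 7.

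Within both lines the single library had more Foxa2 than the double library on day 7 and on day 8. The mean over days 7 and 8 was 5.43 RPM in double and 16.4 in single libraries, with ranges of 1.74 to 10 and 5.74 to 29.2 that overlap. In the fit over days 5 to 8, with day and line as covariates, double minus single was -0.73 in log2 units (SE 0.40, limma adjusted p = 0.299). No member was called between the labels, where 4.68% of 14612 genes were. Restricted to days 7 and 8, a choice made after seeing the data, the difference was -1.62 (limma adjusted p = 0.019). Both fits count the days of a culture as separate libraries, though the labels compare 2 cultures with 2. An exact two-sided permutation test over cultures cannot go below 0.333 here, so the p-values do not measure the spread between cultures. T and Eomes also had lower means in double libraries on those days (26.8 against 102 RPM and 6.17 against 26 RPM), and their part in the difference was not tested.

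Gata6, which starts the primitive endoderm programme, lies on the plus strand at chr18:11052510-11085635 and had 24 reads in all. It had no read on days 0 and 1, 4 on day 2, 2 on day 3 and none on days 4 to 6, where 0 reads in 12 libraries allow up to 0.160 RPM. It came above the floor in 3 libraries, all of line X14. On day 7 the levels were 2.00, 6.19, 0 and 0 RPM and on day 8 they were 0, 3.40, 0 and 0 RPM. Gata6 was called higher on day 7 than on day 0 (adjusted p = 0.0345), but its mean of 2.05 ± 2.92 RPM (SD, n = 4) lies under the mean floor of day 0, and no fold is given. Gata6 reached 1 RPM in 4 libraries, the fewest that pass the filter, at 1.55 RPM on day 2 and in the 3 above the floor. Without its late libraries it would not have been tested, so this p-value is a description. From a fitted log2 difference of 1.41, which is no fold, the call was lost without replicate 1 (1.13, adjusted p = 0.16), without replicate 2 (0.58, 0.366) and without both X14 libraries of day 0 (0.90, 0.277). On day 8 it was not called (adjusted p = 0.205).

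Sox17 had 31 reads, 23 of them on days 7 and 8. Its levels were 2.00, 5.30, 0 and 0 RPM on day 7 and 2.08, 3.89, 0.870 and 0 RPM on day 8. Both X14 libraries of each day were above the floor and no X18 library was. Against day 0 it was called on neither day (log2 difference 0.67, adjusted p = 0.337 on day 7 and 0.80, adjusted p = 0.252 on day 8), and day 0 itself had 6 reads, or 2.78 RPM, in X14 single. No read was seen in the 12 libraries of days 4 to 6, which allows up to 0.160 RPM.

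Gata6 and Sox17 were thus read late in X14 and hardly in X18. Over days 7 and 8, X14 had 18 reads of Gata6 in 4 libraries (2.53 RPM of the pooled reads) and X18 had none, which allows up to 0.659 RPM. For Sox17 the pooled levels were 3.09 RPM from 22 reads in X14 and 0.220 RPM from 1 read in X18. All libraries that took these genes past the filter of 1 RPM, 4 for Gata6 and 5 for Sox17, were of X14, so the genes were tested only because of the line in which they were read and their difference between lines is a description. For Foxa2, with 4 such libraries in each line, X14 minus X18 over days 5 to 8 was 1.07 in log2 units (limma adjusted p = 0.997). That fit includes day 5 without a read of Foxa2 and day 6 with 1. No member was called between the lines, where 0.0137% of genes were. The unadjusted limma p was under 0.05 for 3 of the 5 members tested, Foxa2, Gata6 and Sox17, and for 664 of all 14612 genes. For Gata6 and Sox17 this p is a description too, since only X14 libraries took them past the filter. With 2 cultures of each line, an exact two-sided permutation test over cultures cannot go below 0.333, so it was not run.

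Gata4, the partner of Gata6, was read in 20 libraries but above the floor in 6, and these were spread over days 0, 1, 5, 7 and 8. The highest value was 9.25 RPM (20 reads) in the day 0 library labelled X14 double, one of the 2 libraries whose X-linked output goes against the labels. The other day 0 libraries had 0, 0 and 2.56 RPM. On day 4 there was no read in any library, which allows up to 0.455 RPM over the 4. On day 5 all 4 had reads, at 3.90, 1.65, 2.5 and 2.43 RPM, and on day 6 only X18 double, at 0.691 RPM.

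The step of Gata4 from day 4 to day 5 passed the test (adjusted p = 0.017) and was at least 1.43-fold up against the floor. The step down to day 6 passed as well (log2 fold change -1.87, SE 0.64, adjusted p = 0.0474), with a pooled ratio of day 5 to day 6 of 14 (95% interval 2.17 to 585). Fitted as 2.19, the first was lost without replicate 3 (2.15, adjusted p = 0.113) or 4 (2.16, 0.0994). The second was lost without replicate 1 (-1.52, adjusted p = 0.144), 3 (-1.88, 0.172) or 4 (-1.79, 0.171) and without a filter on low values (-1.87, 0.0652). Day 5 did not differ from day 0 beyond the spread (0.52, SE 0.64, adjusted p = 0.56).

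Hnf4a had 9 reads in 55486917, or 0.162 RPM, and no library held more than 2. These reads fell on days 2, 4, 5, 6 and 8 in both lines. It failed the filter of 1 RPM in at least 4 libraries and was not tested. At this depth no course of Hnf4a was detectable.

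Per kilobase of exon, the scale on which genes can be compared, the highest mean levels were 5.19 ± 4.86 RPKM for Foxa2 on day 7 and 3.13 ± 1.25 for Sox7 on day 3. Gata4 on day 0 (0.757 ± 1.12), Gata6 on day 7 (0.641 ± 0.913) and Sox17 on day 7 (0.579 ± 0.794) followed (SD, n = 4), where Foxa2 and Sox7 differ by less than the SD of Foxa2 and the other members by less than any of their SDs. Pou5f1 fell from 542 ± 129 RPKM on day 0 to 93.5 ± 53.4 on day 8, so that this pluripotency factor lay above the highest mean of any endoderm factor even on day 8.

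Foxa2 and Sox7 passed the filter of 1 RPM only through the days on which they were read. Gata6 and Sox17 would not have passed it without days 7 and 8. The p-values of these genes and the counts of members called are therefore descriptions. Over the 5 members tested, 0 were called on day 1, where 0.0684% of all genes were, 1 on day 2 (2.96%), 1 on day 3 (8.89%), and 0 on day 4 (18.6%), day 5 (26.8%) and day 6 (33.4%). On day 7, 2 were called (35.4% of genes) and on day 8, 1 (35.0%). Of the steps between neighbouring days, 0 members were called from day 1 to 2 (0.0342% of genes), 0 from day 2 to 3 (0.185%), 1 from day 3 to 4 (5.03%), 1 from day 4 to 5 (10.6%), 1 from day 5 to 6 (9.72%), 1 from day 6 to 7 (0.890%) and 0 from day 7 to 8 (0.438%). Where 0 members were called in limma, the members with an unadjusted p under 0.05 numbered 0 to 1 for the comparisons with day 0 and for the steps, and 0 between the labels. Of all 14612 genes, 775 to 7525 had such a p in these comparisons with day 0, 832 to 1372 in these steps and 3478 between the labels. From day 4 on, the share of all genes called against day 0 was itself large, and the members' share lay below it on every day but day 7.

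Over all 9 days together, Sox7 (adjusted p = 4.64e-11), Foxa2 (9.68e-09) and Gata4 (0.0487) were called by the F test, where 65.2% of genes were, and Sox17 (0.052) and Gata6 (0.127) were not. With a replicate block, Gata4 moved to 0.0528 and Sox17 to 0.0294, which exchanges these 2 calls. Sox7 and Foxa2 were called in all 12 fits made, Gata4 in 4 and Sox17 in 3.

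The wider endoderm network was examined through lists of genes that act with, upstream or downstream of these factors, comparing day 8 with day 0. Over all genes 23.9% were called higher and 11.1% lower, and the median of their log2 fold changes was 0.23, which was 0.02 when libraries were scaled to their 75th percentiles and 0.00 with quantile normalization. Fold changes below are as deposited. Genes of these lists without reads on day 0 could be tested only through later days, and genes read in too few libraries were not tested. The counts of calls and the medians of the lists are therefore descriptions.

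Among 14 genes that accompany primitive endoderm, 12 were tested, of which 7 rose, 1 fell and 4 did not pass, with a median log2 fold change of 2.56. The type IV collagens of basement membrane rose, Col4a2 from 6.56 to 211 RPM (log2 fold change 5.53, SE 0.77) and Col4a1 from 13.9 to 254 RPM (4.41, SE 0.59). Lrp2, the endocytic receptor megalin, rose from 4.48 to 108 RPM, and Dab2, an endocytic adaptor, from 0.347 to 30.1 RPM. Lama1, a laminin chain of the same membranes, fell from 18 to 2.08 RPM. Cubn and Amn had no read on days 7 and 8. Most of these genes are also used outside the endoderm. On the same day 8, Gata4, Gata6 and Sox17 had means of 0.859, 0.850 and 1.71 RPM, all under the mean floor, and Sox7 had no read.

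The 14 visceral endoderm products, secreted proteins of the kind Hnf4a drives, included 7 without a read on days 7 and 8. Of 8 tested, 1 rose, 2 fell and 5 did not pass, with a median of -0.54 (-0.29 with genes without reads on a day set at their bound). Apoa2 fell from 16.7 to 1 RPM and Apom from 8.34 RPM to no read, at least 3.63-fold lower. Spink3 was called higher, but its day 8 mean of 1.48 RPM is under the floor. Ttr, Apoa4 and Fgb had no read in any of 36 libraries, which allows up to 0.0541 RPM, and Afp and Apoa1 none on days 7 and 8, which allows up to 0.257 RPM. Apoe, which many cell types make, was at 444 RPM on day 0 and 312 RPM on day 8, and Mttp at 4.26 and 5.5 RPM, and neither was called.

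Of 14 genes of anterior streak and definitive endoderm, 11 were tested, 4 rose, 2 fell and 5 did not pass, with a median of 1.27 (0.74 with such genes at their bound). Otx2, a homeodomain factor of epiblast and anterior endoderm, rose from 0.578 to 44.3 RPM (log2 fold change 5.33, SE 0.44), but it was at 109 RPM on day 5, before Foxa2 had a read. Lhx1 was at least 2.62-fold and Cer1 at least 1.69-fold higher than on day 0, but without X14 single the day 8 mean was 2.34 RPM for Lhx1 and 1.65 RPM for Cer1, neither above the floor, so these bounds rest on that library. Prox1 was called higher, but its day 8 mean of 2.07 RPM is under the floor. Hhex, a homeodomain factor of anterior endoderm, fell by 2.38 and Gsc by 1.75 on the log2 scale. Without both X14 libraries of day 0 the list had 2 calls in place of 6.

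Among 8 relatives of the members, 4 were tested and 2 rose. Gata2 rose from 2.34 to 118 RPM and Gata3 from 0.810 to 27.4 RPM, both GATA factors of trophoblast and blood rather than endoderm. Foxa3 and Gata1 were not called, Sox18 had no read on days 7 and 8 and Hnf4g none in any library. So the GATA factors above the floor on day 8 in mean level were not the endodermal ones.

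The 12 signals and repressors around the endoderm decision were all tested, with 5 higher, 6 lower, 1 not called and a median of -1.46. Bmp4, a posterior signal, rose from 0.427 to 20.7 RPM, and Wnt3, which starts the streak, was at least 8.81-fold higher. Fgf4, which pushes inner cells towards primitive endoderm, fell from 247 to 9.79 RPM (-4.67, SE 0.25) and Prdm14, a repressor of extraembryonic endoderm genes, from 51 to 1.36 RPM (-5.15, SE 0.74). Nanog, which opposes Gata6, fell from 1876 to 152 RPM. Nodal was not called.

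Several of the 6 factors also mark other tissues, so markers of these were counted as well. Of 6 node and floor plate genes 4 were tested and all 4 rose, with a median of 4.05 (2.33 at bounds) and a summed level of 0 to 1.39 RPM per library on day 0 and 34.8 to 220 RPM on day 8. The 4 tested had means of 0 to 0.463 RPM on day 0 and passed the filter only through later days, while Noto and Shh did not pass it. T made up most of the day 8 sum, with a mean of 75.5 RPM and 183 RPM in X14 single, against means of 16.8 RPM for Foxj1 and 6.7 RPM for Nog. Foxj1 was at least 7.97-fold higher than on day 0. Chrd was called too, but its day 8 mean of 1.84 RPM is under the floor. Noto, which defines the node, had no read in any library, and Shh was read on day 8 only in X14 single, at 2.43 RPM. Foxa2 was highest in the same culture, and the part of node cells in its level was not tested.

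Trophoblast genes had the highest median of the 9 lists, 4.64. Of 8 listed, 7 were tested and 5 rose, with a summed level of 79.1 to 127 RPM on day 0 and 457 to 1238 RPM on day 8. Plac1 was at least 96.4-fold and Hand1 at least 27.1-fold higher (57.9-fold and 17.7-fold without X14 double), and Krt7 rose from 4.25 to 364 RPM. None of the listed genes was without reads on days 7 and 8 together. Elf5, however, had no read on day 7 and 5 reads on day 8, in no library above the floor. Tfap2a had a day 8 mean of 1.21 RPM, under the mean floor. The part of trophoblast genes in the collagen and Dab2 rise was not tested.

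Markers of heart, where Gata4 and Gata6 also act, gave 2 higher, 1 lower and 2 not called of 5 tested among 12, with summed levels of 5.14 to 7.68 RPM on day 0 and 38.1 to 108 RPM on day 8, and a median of 1.34 (0.00 at bounds). Hand1, shared with trophoblast, and Tbx20 rose. Nkx2-5, Tbx5 and Hand2 had no read in any library, and Mef2c and Tnnt2 had none on days 7 and 8. Of 11 endothelial genes, where Sox7 and Sox17 act, 6 were tested, with 1 higher, 2 lower, 3 not called and a median of -0.68 (0.00 at bounds). Their summed level was 59.6 to 182 RPM on day 0 and 71.4 to 119 RPM on day 8. Flt1 was at least 36.7-fold higher, while Pecam1, also a gene of naive stem cells, fell by 3.91 and Tek by 2.75 on the log2 scale. Emcn had no read in any library, Cldn5, Erg, Etv2 and Sox18 had none on days 7 and 8, and Cdh5 had 5.71, 1.94, 1.74 and 0 RPM on day 8 in replicates 1 to 4.

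**Figure D4:**
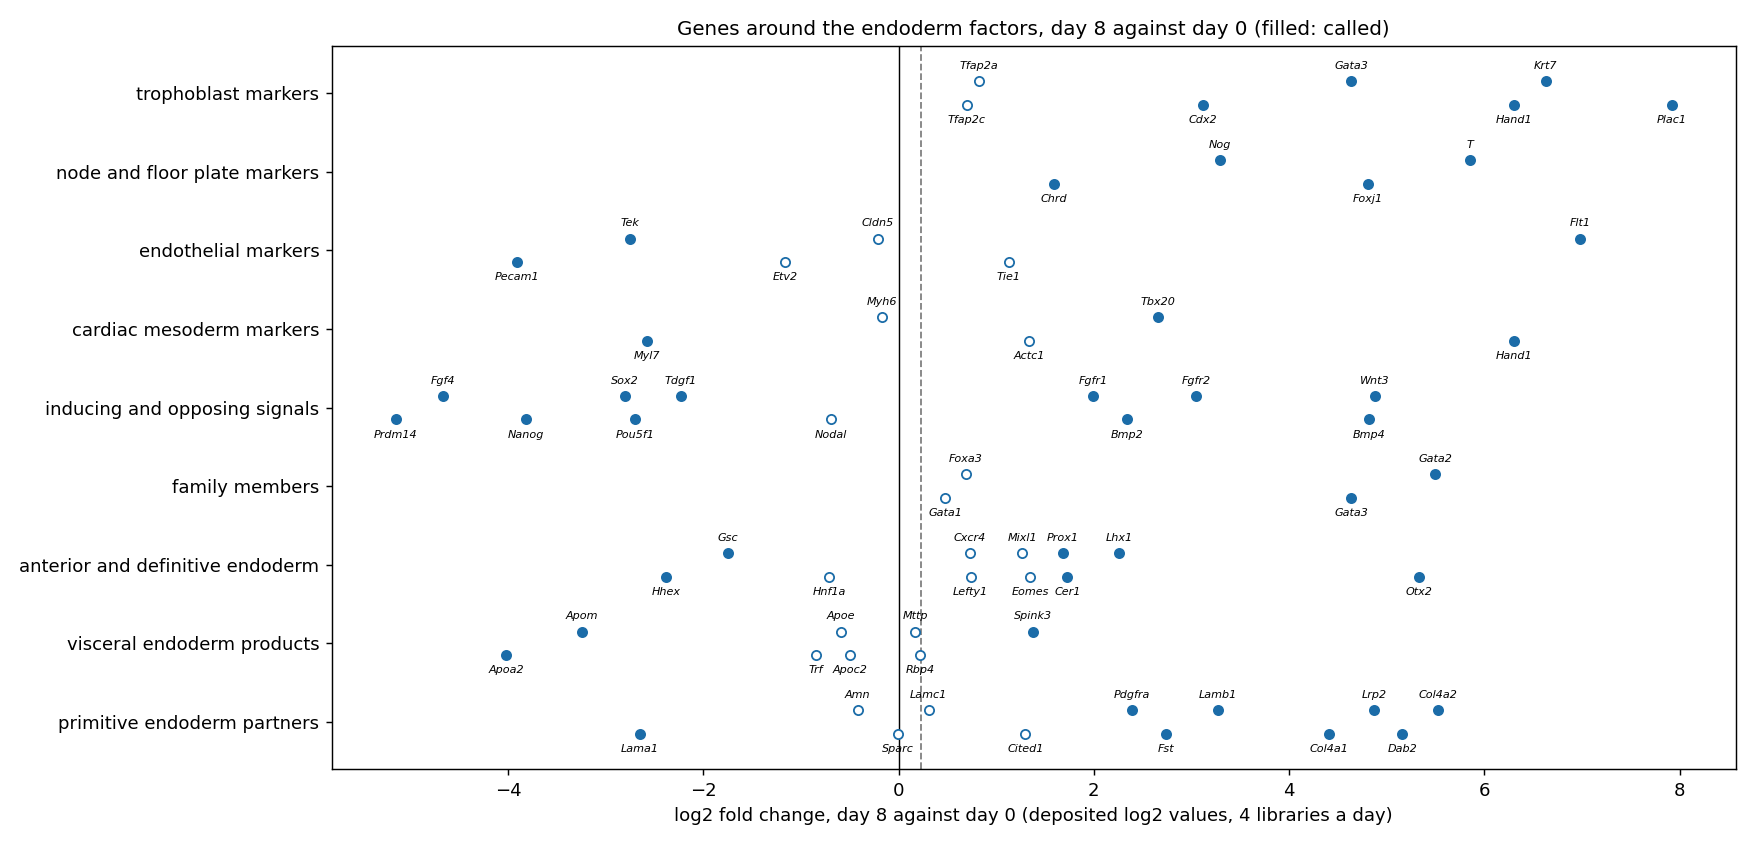
Log2 fold change of day 8 against day 0 for the tested genes of 9 lists, 1 point per gene, from 4 libraries a day. Filled points were called, the solid line is 0 and the dashed line the median of all genes, 0.23. Genes without reads on a day enter with 0.9 read, so their position is no bound. Trophoblast and node genes lie to the right, and visceral endoderm products on both sides of 0.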

How the data were processed

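RNA from 36 libraries was sequenced as 75 bp single-end reads. Per the study's methods and labels trim_galore trimming was followed by alignment to mm10 (tophat or hisat2, with TopHat2 2.0.12 in the submitters' processing notes) and by SeqMonk quantification. Annotation version and use of strand are not given in the sources used here. The deposited values are log2, called log CPM by name but scaled by exon length, so that the unit is log2 RPKM, and the authors entered 0.9 read where a gene had none. Whole reads were recovered for 100.0% of genes (tolerance 0.05 reads), and RPM is the recovered reads over the divisor of the library. All 36 value columns were used (0 left over), and there were no columns of the authors' own comparisons.

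Genes with at least 1 RPM in at least 4 libraries (14612) were fitted with limma 3.58.1 (trend, R 4.3.3) with day as the factor, using the log2 values as deposited, and tested two-sided. A gene was called at a Benjamini-Hochberg adjusted p under 0.05 over all genes tested and a log2 fold change of at least 1. Labels and lines were compared on days 5 to 8 with day and the other factor as covariates. Fold bounds set a day without reads at its mean floor of 3 reads per library. Tests ran on simulated data first.

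The members, gene lists and tests were chosen with earlier results of these data known. Named genes are the members, up to 4 genes of each list with the largest change on day 8, genes defining another cell type, and the 3 genes most like each member. Cer1, Mixl1 and other streak genes shown by culture were picked after their values were seen. Same-numbered libraries share a line and label on every day. Their deviations from the day means correlated at 0.0894 to 0.166 on average, against -0.0869 to -0.0643 for different numbers. Alternatives were other scalings, filters and offsets, voom on recovered reads, a replicate block and leaving out libraries.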

Additional observations from a re-analysis of the deposited data

Results flagged for a closer look

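Among the 15 combinations of a member and a day with at least 1 of the 4 libraries above the floor, there were 2 in which 1 library stood apart from the other 3 by Dixon's criterion. The criterion's rate of about 1 group in 20 holds for continuous values from a normal distribution. In both groups the other 3 libraries had 0 reads, so the gap was the whole range and that rate does not apply. Gata6 on day 8 was read only in X14 single, at 3.40 RPM from 7 reads. Sox17 on day 0 was read only in X14 single, at 2.78 RPM from 6 reads, and this library is one of the pair whose X-linked output goes against the labels.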

How the results depend on the processing

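Of 198 comparisons of 16 single-gene log2 differences with an alternative, 183 kept their direction and their side of the threshold, and none reversed. Of 376 comparisons of 28 counts of calls, 348 stayed within 1.5 times the count, not always with the same genes. Sox7 on days 2 and 3 and Foxa2 on days 7 and 8 stayed called in every alternative that gave a value, with log2 differences of 2.41 to 3.57, 2.83 to 4.00, 3.23 to 4.86 and 2.93 to 4.58. A mean of at least 5 RPM left no member to test between days. After scaling to the 75th percentile 1 member was called on day 4 (Gata4), on day 6 (Gata4) and on day 7 (Foxa2), against 0, 0 and 2. Quantile normalization, only the 2 days compared and, added after seeing the data, leaving out both X14 libraries of day 0 each gave 1 on day 7 (Foxa2). The step from day 5 to 6 had 0 calls without a filter. Culture as a random block, fitted with a negative correlation (-0.153) that narrows the error between cultures, gave 1 call between the lines (Sox17), and days 7 and 8 alone, added after seeing the data, 1 between the lines (Sox17) and 1 between the labels (Foxa2). The fit of days 7 and 8 counts both days of a culture as separate libraries. Leaving out 1 replicate gave 0 to 1 on days 1, 4 and 6 and for the steps from day 4 to 5 and day 5 to 6, and 1 to 2 on days 7 and 8. These were Sox7 on day 1 without replicate 1, and Gata4 on days 4, 6 and 8 without replicate 2. With a replicate block the counts of members called were as without it (2 on day 7, 1 on day 8), and the exchange of Gata4 and Sox17 over all days was the only call of a member it changed among those given. The causes of these changes were not tested. Depth limits every value: 1 read is worth a large part of most levels given.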
